A study of Mus musculus with 16 samples.

Results

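The 30 genes described here encode enzymes of cholesterol synthesis, proteins of the SREBP (sterol regulatory element binding protein) system that sets the transcription of those enzymes, and proteins that take up, move, store or export sterols. They were taken as a fixed list by gene name, with the probe set of highest mean standing for each gene. Of the 30, 28 had a probe set with a single gene name and all 28 were among the 12336 genes tested, while Acat2 and Soat1 had none in the annotation used here and were not analysed. The 28 comprised 6 genes of the mevalonate and isoprenoid steps, 11 of the squalene and sterol steps, 5 of SREBP regulation and 6 of uptake, transport and efflux. Dhcr7, which encodes the reductase that makes cholesterol from 7-dehydrocholesterol, marks the set.

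Levels were read on 16 Affymetrix mouse arrays of embryonic gonad, with 2 arrays in each of 8 groups. The groups were wild-type ovary, Wnt4 knock-out ovary, wild-type testis and Wnt4 knock-out testis, each at embryonic day 12.5 (E12.5) and at E14.5. Wnt4 encodes a secreted WNT protein needed for ovary development, and no allele, strain, promoter or other agent is named for either genotype. Sources of male samples name a testis although their titles name an ovary, and they were treated as testis. The labels speak of biological replicates without saying whether an array held 1 embryo or a pool, so every p-value measures only the spread between these arrays.

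Cells make cholesterol from acetyl-CoA through mevalonate and farnesyl diphosphate, which a committed branch joins into squalene and closes into sterols. When sterols in the endoplasmic reticulum run low, SCAP escorts the SREBP proteins to the Golgi, where they are cut and go on to activate the genes of synthesis and uptake, and INSIG proteins hold this transport back when sterols are plentiful. Steroid-producing cells, among them the Leydig cells of the fetal testis, use cholesterol as the substrate of hormone synthesis and draw on their own synthesis and on uptake through the HDL receptor SCARB1. Whole gonads were measured, so more cells of a type and more RNA per cell cannot be told apart in any of these values.

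Array means were alike, at 272 to 288 intensity units. Wnt4 fell with a passing test in knock-out ovary at E14.5 (log2 difference -1.80, limma adjusted p = 0.0445), with differences of -0.90 in ovary at E12.5, -0.65 in testis at E12.5 and -0.94 in testis at E14.5 that did not pass. The summed level of 6 Sertoli cell genes was 5051 to 7991 in testis arrays and 217 to 2547 in ovary arrays, and that of 7 pre-granulosa genes was 1609 to 3408 in wild-type ovary, 221 to 1074 in knock-out ovary and 127 to 422 in testis. An estimated 8.06 to 22.7% of RNA came from the opposite sex in 6 arrays by sex-linked genes, 1 of each E14.5 group except knock-out ovary among them. A 3'/5' signal ratio of 1.76 or more, a sign of RNA quality, was found in 3 E12.5 arrays (knock-out ovary replicate 1, wild-type ovary replicate 2 and knock-out testis replicate 1). Both arrays of wild-type testis at E12.5 were nearly alike, with an SD of 0.142 of their log2 difference over genes against 0.335 to 0.587 in the other groups, so counts that moved by over 1.5 times with both averaged into 1 are given that way too.

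Many of the cholesterol genes had their highest levels in the testis at E14.5, in both genotypes. In 13 of the 28 members (46.4%) all 4 testis arrays at E14.5 lay above each of the other 12 arrays, which held for 3.32% of all genes. These were Hmgcs1, Idi1, Fdps, Fdft1, Sqle, Lss, Cyp51, Tm7sf2, Msmo1, Nsdhl, Dhcr7, Insig1 and Scarb1. The synthesis genes Mvk, Pmvk, Mvd, Hsd17b7, Ebp and Sc5d were not among them. By the probe sets used, Mvk was highest in a knock-out ovary array of E14.5 (113) and Pmvk in a wild-type ovary array of E12.5 (173). Against the 4 ovary arrays of the same stage alone, 19 of the 28 (67.9%) had all 4 testis arrays above, compared with 12.5% of all genes. Dhcr7, Scarb1 and Tm7sf2 had the largest stage differences between the sexes, and no member passed the test for a difference between genotypes.

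**Figure D1:**
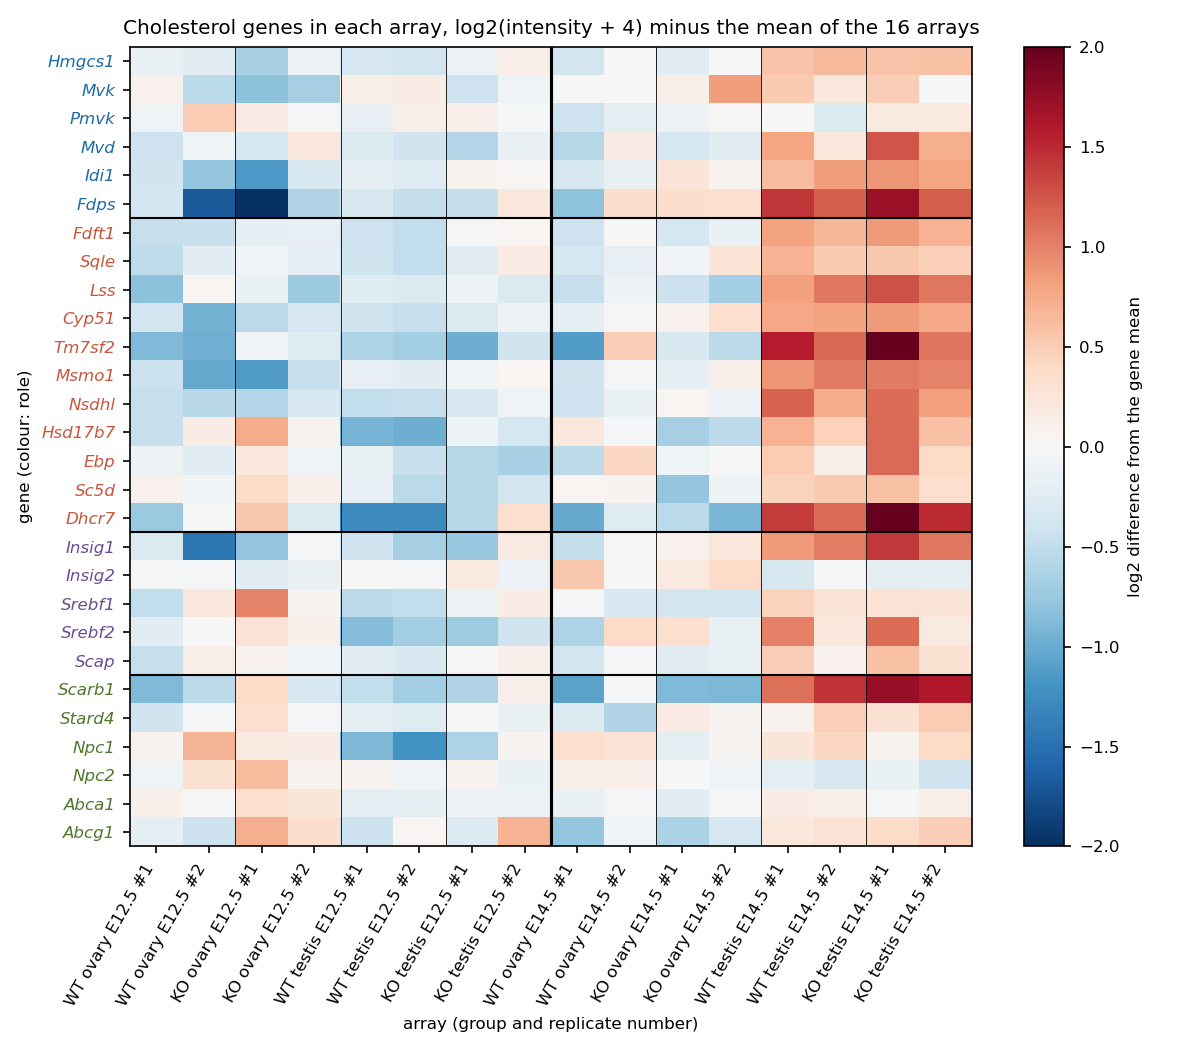
Each cell is log2(intensity + 4) of 1 of the 28 cholesterol genes (vertical axis, gene names coloured by role and separated by lines) in 1 of the 16 arrays (horizontal axis, E12.5 left and E14.5 right of the thick line), minus the mean of that gene over the 16 arrays. The 4 testis arrays at E14.5 on the right are red for most genes of synthesis and for Insig1 and Scarb1, while Insig2 and Npc2 do not share the pattern.

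Changes in these genes were read as differences of log2(intensity + 4), a scale on which dim genes such as Tm7sf2 appear to change less than they do. A gene was called where the limma p adjusted over all 12336 genes was under 0.05. Pairs of intensities are replicates 1 and 2 of a group. Over all genes the median difference lay between -0.11 and 0.10 in each of the comparisons.

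The promoters of the members called higher in testis at E14.5 in both genotypes, picked after their values were seen, are shown because the SREBP proteins and their partner factors bind words in such regions. RefSeq promoters on GRCm38.p6 were at hand for 5 of these 7 genes, and the 250 bases before the transcription start are printed here in the direction of the gene, at chr13:119690101-119690350 (plus strand) for Hmgcs1, chr10:76531355-76531604 (plus) for Lss, chr8:64733579-64733828 (minus) for Msmo1, chrX:72918271-72918520 (plus) for Nsdhl and chr7:143822917-143823166 (plus, the most upstream of 3 starts) for Dhcr7. Capitals mark the words CCAAT and ATTGG, which are the CCAAT box on either strand and the site of the partner factor NF-Y, and in Hmgcs1 the word TCACNCCAC of a sterol regulatory element.
Hmgcs1: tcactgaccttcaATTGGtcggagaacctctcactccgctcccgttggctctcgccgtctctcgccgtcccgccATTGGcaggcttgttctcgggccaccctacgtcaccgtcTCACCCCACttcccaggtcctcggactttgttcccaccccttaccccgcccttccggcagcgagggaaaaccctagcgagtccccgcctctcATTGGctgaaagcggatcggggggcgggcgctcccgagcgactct
Lss: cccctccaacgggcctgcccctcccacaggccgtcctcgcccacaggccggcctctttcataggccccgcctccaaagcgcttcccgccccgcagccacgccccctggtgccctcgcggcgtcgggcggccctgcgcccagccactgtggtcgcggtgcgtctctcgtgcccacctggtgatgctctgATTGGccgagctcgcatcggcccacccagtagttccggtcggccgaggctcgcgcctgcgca
Msmo1: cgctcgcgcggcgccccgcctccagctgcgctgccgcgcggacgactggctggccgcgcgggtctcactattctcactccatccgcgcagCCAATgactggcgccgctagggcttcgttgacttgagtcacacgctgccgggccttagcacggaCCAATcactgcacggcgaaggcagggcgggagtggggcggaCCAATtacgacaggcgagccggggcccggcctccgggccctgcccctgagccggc
Nsdhl: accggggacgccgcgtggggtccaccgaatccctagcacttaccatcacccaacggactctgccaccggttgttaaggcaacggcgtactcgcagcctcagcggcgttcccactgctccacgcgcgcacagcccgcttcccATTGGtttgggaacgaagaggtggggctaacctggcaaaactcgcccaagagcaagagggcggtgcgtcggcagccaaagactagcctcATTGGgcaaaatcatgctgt
Dhcr7: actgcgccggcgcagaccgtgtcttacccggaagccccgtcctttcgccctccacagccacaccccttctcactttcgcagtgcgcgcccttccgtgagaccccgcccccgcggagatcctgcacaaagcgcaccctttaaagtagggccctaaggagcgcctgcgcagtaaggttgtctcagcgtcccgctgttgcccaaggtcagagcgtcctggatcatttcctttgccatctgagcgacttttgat

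Hmgcs1 held 3 CCAAT words, Msmo1 3, Nsdhl 2 and Lss 1 in these windows, and the Dhcr7 window held none. The word TCACNCCAC was searched on both strands of the 300 bases around the start in 31 promoters of 23 listed genes (those in the table and searched here), and only Hmgcs1 held it, 1 of 31 promoters (3.23%) against 1.24% of all 32851 promoters. CCAAT or ATTGG was found in 21 of the 31 (67.7%), against 37.4% of all promoters. GGGCGG or its complement, the core of the GC box read by SP factors, was in 26 of the 31 (83.9%), against 35.7% of all. Dhcr7 carried its CCAAT words at the most downstream of its 3 starts. These are matches of letters, and whether a factor binds there was not measured.

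At E14.5 10 of 28 members were called higher in testis than in ovary in wild type, against 2.26% of all genes. They were 2 of the 6 mevalonate and isoprenoid genes, 7 of the 11 squalene and sterol genes (not Tm7sf2, Hsd17b7, Ebp and Sc5d), none of the 5 regulators and 1 of the 6 transport genes, with a member median of 0.72 beside -0.017 over all genes. Knock-out gonads were compared in the same way after the data had been seen, and there 10 members were called as well, against 3.84% of all genes, with a median of 0.75 and 0.022 over all genes. Hmgcs1, Fdft1, Lss, Msmo1, Nsdhl, Dhcr7 and Scarb1 were called in both, which is 7 of the 10 in either genotype, from comparisons that share no arrays but share the fitted variance. Without wild-type ovary replicate 1 the wild-type count fell to 0, without testis replicate 1 to 1, without testis replicate 2 to 2, and it was 12 without ovary replicate 2. The knock-out count was 4 and 3 without ovary replicates 1 and 2, and 4 and 7 without testis replicates 1 and 2.

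**Figure D2:**
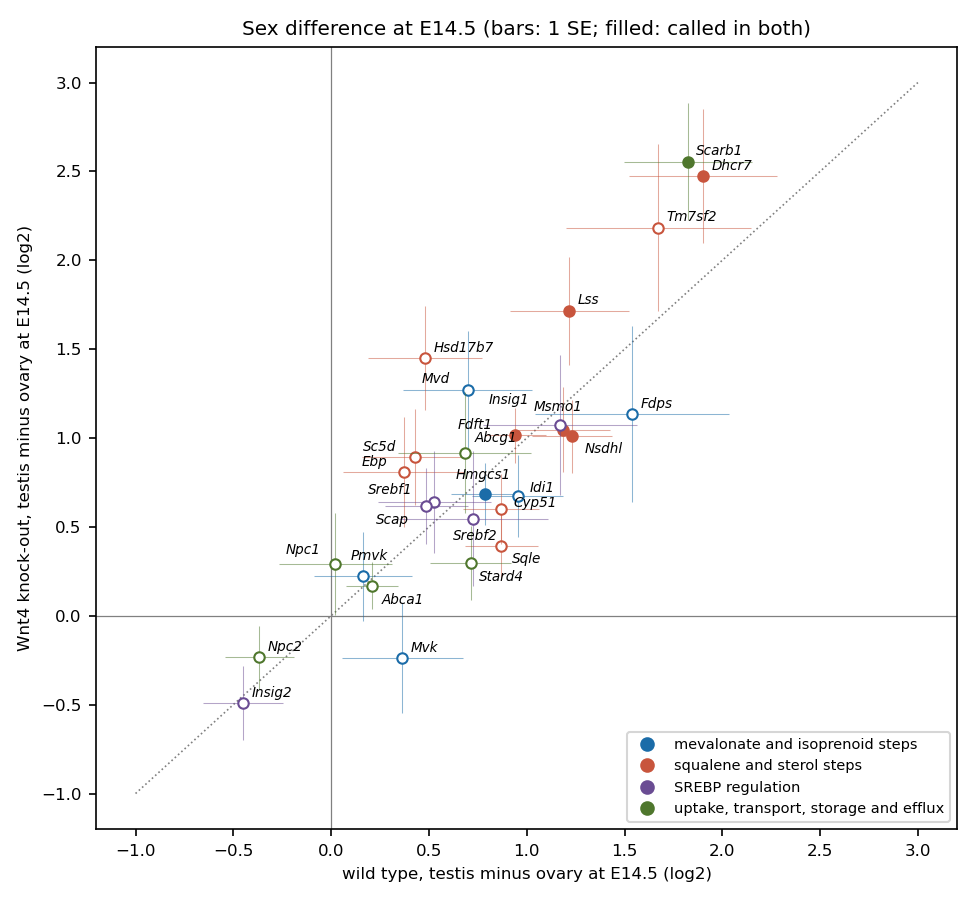
Each point is 1 of the 28 cholesterol genes, with the log2 difference of testis minus ovary at E14.5 in wild type on the horizontal axis and in the Wnt4 knock-out on the vertical axis, bars of 1 SE, colours for the roles, and the dotted line of equal differences. Filled points were called in both genotypes, led by Scarb1 (1.82 and 2.56) and Dhcr7 (1.90 and 2.47), and Insig2 lies below 0 in both (-0.45 and -0.49).

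Among the probe sets used and on the log2(intensity + 4) scale, Dhcr7 had the largest difference of the sterol enzymes between testis and ovary at E14.5 in either genotype. At E14.5 Dhcr7 read 119.8 and 203 in wild-type ovary, 168 and 128 in knock-out ovary, 654 and 541 in wild-type testis and 995 and 697 in knock-out testis. At E12.5 Dhcr7 read 145 and 239.9 in wild-type ovary, 359 and 201 in knock-out ovary, 99.3 and 99.3 in wild-type testis and 164 and 309 in knock-out testis. The 4 testis arrays at E14.5 were above all others, and wild-type testis at E12.5 held the lowest values of the 16. Testis exceeded ovary at E14.5 by 1.90 (SE 0.38, limma adjusted p = 0.0124) in wild type and by 2.47 (SE 0.38, limma adjusted p = 0.00161) in knock-out, which are 3.74-fold and 5.55-fold. The wild-type call was lost without ovary replicate 1 and without either testis array at E14.5 and with only the arrays of the comparison in the fit, with an adjusted p of up to 0.195, and the knock-out call held under all 17 alternatives.

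Fdft1, squalene synthase, is the first enzyme committed to sterols. At E14.5 Fdft1 read 775 and 1021 in wild-type ovary, 801 and 942 in knock-out ovary, 1799.8 and 1630.2 in wild-type testis and 1853 and 1669 in knock-out testis. At E12.5 Fdft1 read 749 and 749.9 in wild-type ovary, 897 and 914 in knock-out ovary, 774 and 731 in wild-type testis and 1037 and 1059 in knock-out testis. Ovary arrays of either stage did not exceed 1021, while the 4 testis arrays at E14.5 started at 1630.2. The difference between testis and ovary at E14.5 was 0.94 (SE 0.15, limma adjusted p = 0.00455) in wild type and 1.01 (SE 0.15, limma adjusted p = 0.00161) in knock-out. A further probe set of Fdft1 gave 1.19 and 0.92.

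Lss, lanosterol synthase, closes the ring system. At E14.5 Lss read 97.8 and 127 in wild-type ovary, 100.3 and 84.0 in knock-out ovary, 243 and 288 in wild-type testis and 336 and 288 in knock-out testis. At E12.5 Lss read 75.3 and 140.5 in wild-type ovary, 124 and 79.8 in knock-out ovary, 115 and 112 in wild-type testis and 127 and 111 in knock-out testis. All 12 other arrays lay at or below 140.5, so the testis level at E14.5 was clear of them in both genotypes. The difference from ovary was 1.22 (SE 0.30, limma adjusted p = 0.0422) in wild type and 1.72 (SE 0.30, limma adjusted p = 0.00418) in knock-out. Its further probe set gave 1.79 and 2.50.

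Nsdhl encodes a dehydrogenase that removes the methyl groups of lanosterol. At E14.5 Nsdhl read 269 and 328 in wild-type ovary, 371 and 333 in knock-out ovary, 820.0 and 604 in wild-type testis and 791 and 642 in knock-out testis. At E12.5 Nsdhl read 262 and 245 in wild-type ovary, 239 and 287 in knock-out ovary, 255 and 259.9 in wild-type testis and 293 and 343 in knock-out testis. Ovary and E12.5 testis arrays overlapped one another and all stayed under the E14.5 testis arrays. Testis was higher by 1.23 (SE 0.21, limma adjusted p = 0.00494) in wild type and by 1.01 (SE 0.21, limma adjusted p = 0.0101) in knock-out.

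Msmo1, a methylsterol oxidase of the same step, was read at E14.5 as 449 and 575 in wild-type ovary, 524 and 639 in knock-out ovary, 1099.7 and 1226 in wild-type testis and 1219 and 1181 in knock-out testis. At E12.5 Msmo1 read 438 and 289 in wild-type ovary, 269 and 428 in knock-out ovary, 527 and 509 in wild-type testis and 555 and 608 in knock-out testis. Here the testis arrays were above the ovary arrays of their genotype at E12.5 already, although that difference was not called (0.54 in wild type, limma adjusted p = 0.289, and 0.77 in knock-out, adjusted p = 0.132). At E14.5 it was 1.19 (SE 0.24, limma adjusted p = 0.0134) in wild type and 1.05 (SE 0.24, limma adjusted p = 0.0207) in knock-out. A further probe set of Msmo1 gave -0.028 and 0.13, but it was dim in every array. It read 6.19 to 12.9, where the probe set used read 269 to 1226, so it cannot decide whether the difference holds. With the mean of the probe sets neither genotype was called.

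Hmgcs1 makes HMG-CoA at the head of the mevalonate pathway. At E14.5 Hmgcs1 read 2627 and 3417 in wild-type ovary, 2908 and 3393 in knock-out ovary, 5024 and 5313 in wild-type testis and 5040.5 and 5079 in knock-out testis. At E12.5 Hmgcs1 read 3077 and 2939 in wild-type ovary, 2163 and 3155 in knock-out ovary, 2693 and 2613 in wild-type testis and 3113 and 3697 in knock-out testis. The 4 testis arrays at E14.5 were close to each other and above the highest other array. Testis was higher by 0.79 (SE 0.17, limma adjusted p = 0.0234) in wild type and by 0.69 (SE 0.17, limma adjusted p = 0.0359) in knock-out. Taking the mean of its 5 probe sets ended both calls. All 5 gave values above 0, from 0.18 to 0.90 in wild type and from 0.51 to 0.73 in knock-out. The dimmest of them read 8.37 to 29.8 over the arrays.

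Scarb1 was the transport gene that followed the enzymes. At E14.5 Scarb1 read 257 and 532 in wild-type ovary, 294 and 289.5 in knock-out ovary, 1174 and 1484 in wild-type testis and 1823 and 1651 in knock-out testis. At E12.5 Scarb1 read 293 and 375 in wild-type ovary, 714 and 435 in knock-out ovary, 383 and 335 in wild-type testis and 358 and 585 in knock-out testis. Knock-out ovary replicate 1 was the highest E12.5 array and still lay under every testis array at E14.5. Testis exceeded ovary by 1.82 (SE 0.33, limma adjusted p = 0.00735) in wild type and by 2.56 (SE 0.33, limma adjusted p = 0.00052) in knock-out, or 3.54-fold and 5.88-fold. Its other probe sets gave 2.00 and 1.77 in wild type and 2.61 and 2.35 in knock-out.

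**Figure D3:**
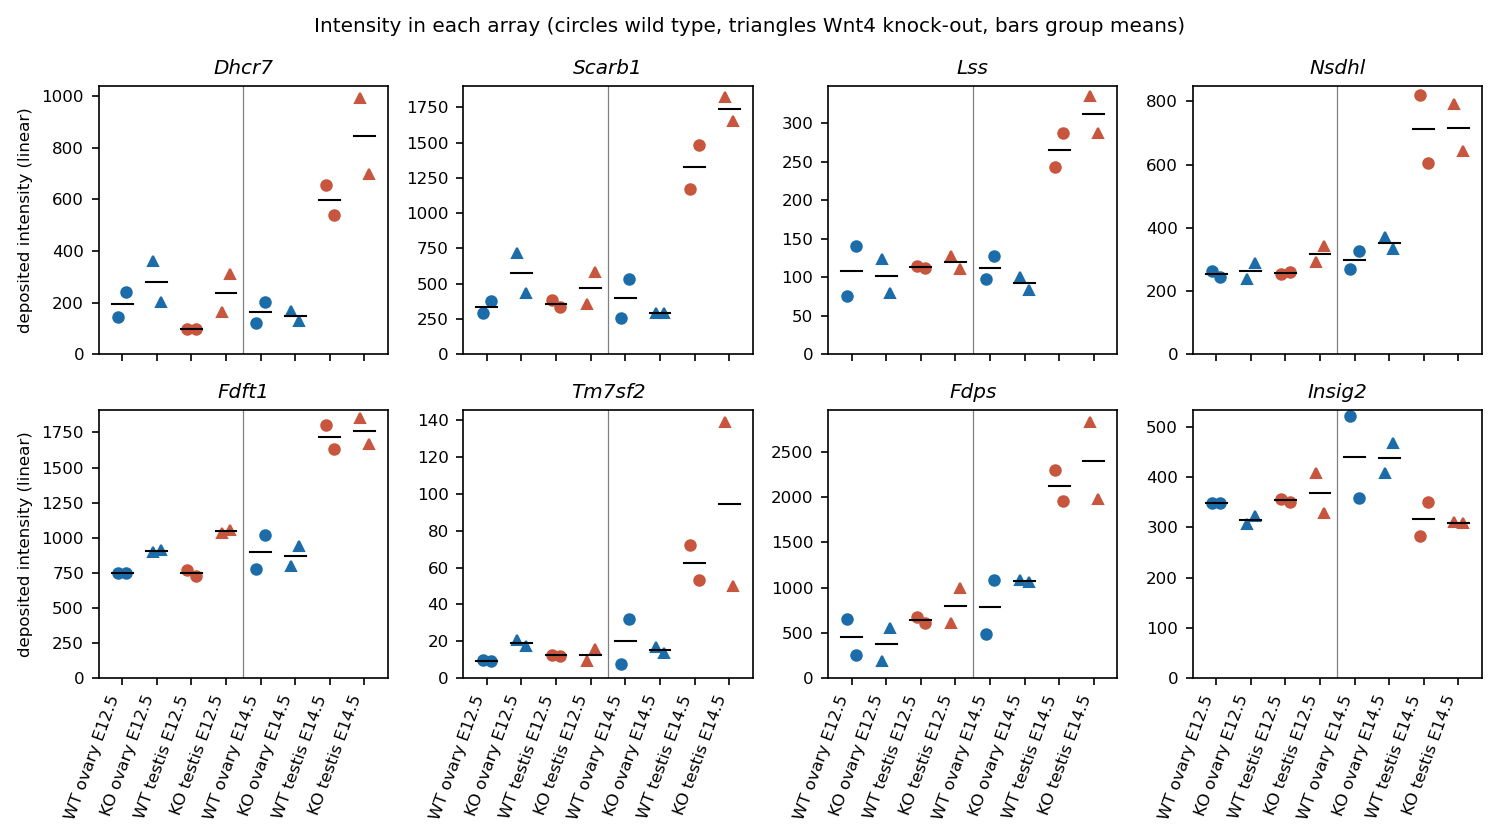
Deposited intensity on a linear scale (vertical axis, from 0) in each array for 8 cholesterol genes, in the 8 groups along the horizontal axis. Circles are wild type, triangles Wnt4 knock-out, blue ovary and red testis, and black bars are group means of 2 arrays. In all panels but Insig2 the 4 red points at E14.5 stand above the rest, as for Dhcr7 with 541 to 995 against at most 359.

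Other genes were called at E14.5 in 1 genotype, and whether the sex difference of that stage differs between genotypes was not tested in them. Idi1 (isopentenyl diphosphate isomerase), Sqle (squalene epoxidase) and Cyp51 (lanosterol demethylase) were called in wild type, with 0.95 (SE 0.23, limma adjusted p = 0.0365), 0.87 (SE 0.19, limma adjusted p = 0.0198) and 0.87 (SE 0.20, limma adjusted p = 0.0248). In knock-out the same differences were 0.67, 0.39 and 0.60 (adjusted p = 0.131, 0.31 and 0.109). Idi1 read 587 and 661 in wild-type ovary, 879 and 765 in knock-out ovary, 1121 and 1306 in wild-type testis and 1356 and 1266 in knock-out testis at E14.5. Sqle read 396 and 454 in wild-type ovary, 488 and 619 in knock-out ovary, 828 and 733 in wild-type testis and 738 and 706 in knock-out testis at E14.5. Cyp51 read 407 and 473 in wild-type ovary, 496 and 585 in knock-out ovary, 794 and 814 in wild-type testis and 840.1 and 798 in knock-out testis at E14.5. In each of the 3 genes the 4 testis arrays were above the 4 ovary arrays.

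Mvd (mevalonate diphosphate decarboxylase), Tm7sf2 (a sterol reductase) and Hsd17b7 (a ketosteroid reductase of the same branch) were called in knock-out, with 1.27 (SE 0.33, limma adjusted p = 0.0389), 2.18 (SE 0.47, limma adjusted p = 0.0146) and 1.45 (SE 0.29, limma adjusted p = 0.00923). In wild type they differed by 0.70, 1.67 and 0.48 (limma adjusted p = 0.322, 0.07 and 0.471). Mvd read 32.6 and 56.4 in wild-type ovary, 38.6 and 42.7 in knock-out ovary, 89.3 and 58.4 in wild-type testis and 126 and 85.7 in knock-out testis at E14.5. Tm7sf2 read 7.82 and 32.3 in wild-type ovary, 16.8 and 13.9 in knock-out ovary, 72.3 and 53.2 in wild-type testis and 139 and 49.8 in knock-out testis at E14.5. Hsd17b7 read 178 and 150.2 in wild-type ovary, 94.9 and 106 in knock-out ovary, 249 and 212 in wild-type testis and 339 and 233 in knock-out testis at E14.5. Knock-out testis replicate 1 was the highest array of all 3, and testis arrays did not overlap ovary arrays of the same stage in any of them.

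Fdps, farnesyl diphosphate synthase at the branch point to the isoprenoids, had a large but variable step. At E14.5 Fdps read 484 and 1087 in wild-type ovary, 1084 and 1066 in knock-out ovary, 2297 and 1952 in wild-type testis and 2828 and 1975 in knock-out testis. At E12.5 Fdps read 650.0 and 262 in wild-type ovary, 194 and 557 in knock-out ovary, 676 and 610.4 in wild-type testis and 607 and 996 in knock-out testis. All 4 testis arrays at E14.5 were above the other 12, yet ovary arrays at E12.5 spread from 194 to 650.0. The testis difference at E14.5 was 1.54 (SE 0.50, limma adjusted p = 0.117) in wild type and 1.13 (SE 0.50, limma adjusted p = 0.256) in knock-out, neither of which passed.

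Between E12.5 and E14.5 most of the set rose in the wild-type testis, with 16 of 28 members called higher, against 6.73% of all genes. The called genes were Hmgcs1, Idi1, Fdps, Fdft1, Sqle, Lss, Cyp51, Tm7sf2, Msmo1, Nsdhl, Hsd17b7, Dhcr7, Insig1, Srebf2, Scarb1 and Npc1, with a member median of 1.01 beside 0.068 over all genes. Dhcr7 rose by 2.54 (SE 0.38, limma adjusted p = 0.00115), 5.8-fold, and Tm7sf2 by 2.01 (SE 0.47, limma adjusted p = 0.0168). Nsdhl rose by 1.44 (SE 0.21, limma adjusted p = 0.000923) and Fdft1 by 1.18 (SE 0.15, limma adjusted p = 0.000496). In the same arrays the summed level of 5 germ cell genes was 2062 to 2110.4 at E12.5 and 7065 to 9229 at E14.5 and that of 3 embryonic erythroid genes 12178 to 12717 and 1770.2 to 2438, and their part in the result was not tested. With both E12.5 arrays averaged the count was 7. Leaving out E12.5 replicate 1 gave 8, E12.5 replicate 2 gave 4, E14.5 replicate 1 gave 10 and E14.5 replicate 2 gave 8.

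The knock-out testis, compared after the data had been seen, had 11 members called higher, against 2.76% of all genes, with a median of 0.86 and -0.023 over all genes. Mvd and Ebp, the sterol isomerase, were called there and not in wild type. Mvd rose by 1.35 (SE 0.33, limma adjusted p = 0.0354) and Ebp by 1.37 (SE 0.31, limma adjusted p = 0.0247). Fdft1, Lss, Cyp51, Tm7sf2, Msmo1, Nsdhl, Dhcr7, Insig1 and Scarb1 were called in both genotypes, 9 of the 16 wild-type and 9 of the 11 knock-out calls. Tm7sf2 rose by 2.45 (SE 0.47, limma adjusted p = 0.00945) and Scarb1 by 1.91 (SE 0.33, limma adjusted p = 0.00432). The count was 0 and 6 without E12.5 replicates 1 and 2, and 1 and 5 without E14.5 replicates 1 and 2.

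Insig1, a target of the SREBP proteins and their brake, was the regulator that rose in both testis comparisons. At E14.5 Insig1 read 131 and 187 in wild-type ovary, 197 and 217 in knock-out ovary, 335 and 381 in wild-type testis and 498 and 387 in knock-out testis. At E12.5 Insig1 read 149.9 and 65.4 in wild-type ovary, 105 and 181 in knock-out ovary, 139 and 115 in wild-type testis and 108 and 209.8 in knock-out testis. It rose by 1.47 (SE 0.40, limma adjusted p = 0.0312) in wild-type testis and by 1.52 (SE 0.40, limma adjusted p = 0.0498) in knock-out testis. The knock-out call was kept in 5 of 17 alternatives, and the wild-type call was lost in 6 of 17, those without any 1 of its 4 arrays, with the E12.5 arrays averaged and with the opposite-sex covariate. Insig2, the paralog, read 521 and 358 in wild-type ovary, 407 and 468 in knock-out ovary, 283 and 350.2 in wild-type testis and 309 and 309 in knock-out testis at E14.5. The testis minus ovary difference of Insig2 was -0.45 in wild type and -0.49 in knock-out and did not pass the test (limma adjusted p = 0.306 and 0.23), and its 2 further probe sets also gave values below 0 in both.

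Srebf2 encodes the SREBP that chiefly serves cholesterol genes. At E14.5 Srebf2 read 114 and 234 in wild-type ovary, 225 and 159.6 in knock-out ovary, 359 and 208 in wild-type testis and 387 and 200.3 in knock-out testis. At E12.5 Srebf2 read 152 and 176 in wild-type ovary, 216 and 191 in knock-out ovary, 95.3 and 108 in wild-type testis and 107 and 133 in knock-out testis. In this probe set replicate 1 of either testis group was well above replicate 2 at E14.5, and the replicates 2 overlapped the ovary arrays. A further probe set of Srebf2 did not overlap at E14.5, with 33.2 to 101 in ovary and 127 to 180 in testis. Its testis minus ovary difference was 1.26 in wild type and 1.05 in knock-out. In the probe set used Srebf2 rose by 1.39 (SE 0.38, limma adjusted p = 0.0337) in wild-type testis, a call lost in 6 of 17 alternatives. Srebf1, whose product serves fatty acid genes more, read 294 and 244 in wild-type ovary, 233 and 232 in knock-out ovary, 417 and 361 in wild-type testis and 368 and 360.2 in knock-out testis at E14.5. At E12.5 Srebf1 read 212 and 354 in wild-type ovary, 592 and 313 in knock-out ovary, 208 and 213 in wild-type testis and 278 and 334 in knock-out testis. Scap, the escort protein, was not called, with differences of 0.54 and 0.39 from E12.5 to E14.5 in wild-type and knock-out testis (limma adjusted p = 0.121 and 0.406).

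Npc1, which exports cholesterol from lysosomes, was the only member called at E12.5 between the wild-type sexes, with a testis minus ovary difference of -1.43 (SE 0.29, limma adjusted p = 0.0432), against 0.454% of all genes called lower. At E12.5 Npc1 read 99.1 and 154 in wild-type ovary, 108 and 105 in knock-out ovary, 48.7 and 38.7 in wild-type testis and 60.6 and 98.4 in knock-out testis. At E14.5 Npc1 read 119.5 and 117 in wild-type ovary, 82.8 and 98.8 in knock-out ovary, 112 and 128 in wild-type testis and 99.2 and 125 in knock-out testis. Wild-type testis was thus low at E12.5 and level with ovary at E14.5, a rise of 1.39 (SE 0.29, limma adjusted p = 0.00902) with the stage. The E12.5 call was lost in 10 of 17 alternatives, among them those without ovary replicate 2 or either testis array, and 2 members were called without ovary replicate 1. In knock-out no member was called between the sexes at E12.5, against 1.14% of all genes, with 4 members higher and 3 lower in testis at an unadjusted p under 0.05, and 5 were called without knock-out ovary replicate 2.

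The ovary of the same stages gave fewer calls. In wild-type ovary 0 of 28 members were called by limma from E12.5 to E14.5, against 4.36% of all genes, 1 had an unadjusted p under 0.05 (Cyp51, 0.58, adjusted p = 0.128), and the member median was 0.11, which was -0.021 without E14.5 replicate 2 and 0.23 without E14.5 replicate 1. The 95% interval for Dhcr7 was -1.06 to 0.56 and that for Scarb1 -0.55 to 0.86. A single member was called when ovary replicate 1 of E12.5 was left out, a count of 1 in place of 0.

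Knock-out ovary, a comparison added after the data had been seen, had 4 members called higher at E14.5, against 5.33% of all genes, and 1 called lower, against 8.46%. The higher ones were early enzymes and Cyp51, with Mvk (mevalonate kinase) 1.22 (SE 0.31, limma adjusted p = 0.0225), Idi1 0.89 (SE 0.23, limma adjusted p = 0.0245), Fdps 1.69 (SE 0.50, limma adjusted p = 0.0393) and Cyp51 0.64 (SE 0.20, limma adjusted p = 0.0452). Hsd17b7 fell by 1.00 on the log2 scale (SE 0.29, limma adjusted p = 0.0393). Mvk read 61.3 and 62.0 in wild-type ovary, 66.7 and 113 in knock-out ovary, 90.1 and 71.7 in wild-type testis and 88.4 and 60.5 in knock-out testis at E14.5. At E12.5 Mvk read 65.9 and 41.1 in wild-type ovary, 33.1 and 37.2 in knock-out ovary, 66.8 and 69.0 in wild-type testis and 45.1 and 58.0 in knock-out testis. Its knock-out ovary arrays at E12.5 were the lowest of the 16 in the probe set used, and replicate 2 at E14.5 was the highest. A further probe set of Mvk did not share this order. There the knock-out ovary replicates 1 and 2 read 67.6 and 26.9 at the earlier stage, then 31.2 and 45.0 at the later. With the mean of probe sets the call of Mvk in knock-out ovary was lost.

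At E12.5 Hsd17b7 read 111 and 169.8 in wild-type ovary, 259 and 160.3 in knock-out ovary, 78.4 and 75.7 in wild-type testis and 143 and 119 in knock-out testis. In the probe set used, knock-out ovary replicate 1 thus led that stage. That array had the 3'/5' ratio of 2.27, and the summed level of 3 adrenal cortex genes was 141 to 327 in the knock-out ovary arrays at E12.5 against 63.0 to 100.3 in the other E12.5 arrays, and their part in these values was not tested. Without that array 0 members were called, without E12.5 replicate 2 there were 10, without E14.5 replicate 1 there was 1 and without E14.5 replicate 2 there were 0. With the 3'/5' ratio as a covariate 0 were called, and with the replicate number as a block 3.

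**Figure D4:**
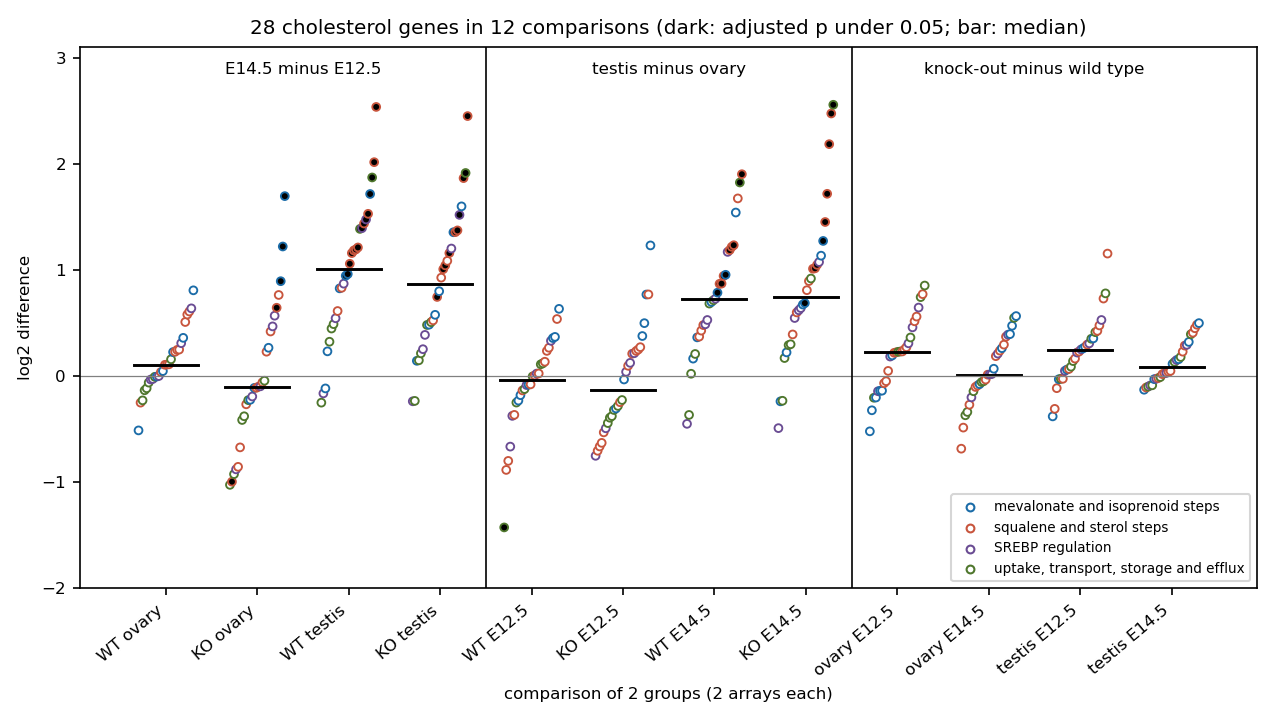
Log2 differences of the 28 cholesterol genes (vertical axis) in the 12 comparisons of 2 groups with 2 arrays each (horizontal axis), sorted within each comparison, with dark points for genes called at an adjusted p under 0.05, outline colours for the roles and bars for medians. Medians stand at 1.01 and 0.86 for the stage step in wild-type and knock-out testis and at 0.72 and 0.75 for testis against ovary at E14.5, and the genotype comparisons hold no dark point.

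The difference between the sexes in the step from E12.5 to E14.5, averaged over genotype, was tested directly, and 14 of 28 members had the higher stage difference in testis, against 6.57% of all genes called in that direction. The member median was 0.88, beside 0.10 over all genes. Calls fell on 2 of 6 mevalonate and isoprenoid genes, 7 of 11 squalene and sterol genes, 2 of 5 regulators and 3 of 6 transport genes. Sc5d, Srebf1 and Abca1 among them were not called rising in the testis of either genotype. Dhcr7 led with 2.75 (SE 0.38, limma adjusted p = 0.00216), a 95% interval of 1.94 to 3.57, followed by Scarb1 with 2.28 (SE 0.33, limma adjusted p = 0.00266) and Tm7sf2 with 2.06 (SE 0.47, limma adjusted p = 0.0201). Hsd17b7 differed by 1.68 (SE 0.29, limma adjusted p = 0.00659) and Sc5d, the sterol desaturase before the last step, by 1.20 (SE 0.27, limma adjusted p = 0.0191). The calls of Dhcr7, Scarb1, Fdft1, Nsdhl and Hsd17b7 held under all 28 alternatives.

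Sc5d and Ebp act just before Dhcr7 in the pathway. At E14.5 Sc5d read 81.0 and 81.8 in wild-type ovary, 44.3 and 72.9 in knock-out ovary, 108 and 114 in wild-type testis and 119 and 100.3 in knock-out testis. At E12.5 Sc5d read 83.0 and 75.6 in wild-type ovary, 103 and 83.9 in knock-out ovary, 69.6 and 52.7 in wild-type testis and 51.4 and 60.2 in knock-out testis. In this probe set the testis arrays were above the ovary arrays at E14.5 and below each of them at E12.5. A further probe set of Sc5d overlapped between the sexes at both stages and gave 0.32 for the difference of the steps. With the mean of probe sets the call of Sc5d for that difference was lost. At E14.5 Ebp read 144 and 278 in wild-type ovary, 196 and 209 in knock-out ovary, 297 and 229 in wild-type testis and 464 and 276 in knock-out testis. At E12.5 Ebp read 194 and 179 in wild-type ovary, 241 and 196 in knock-out ovary, 188 and 152 in wild-type testis and 139 and 132 in knock-out testis. Wild-type ovary replicate 2 reached into the testis range at E14.5, and the difference of the steps in Ebp was 0.99 (limma adjusted p = 0.0581).

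Abca1, which moves cholesterol out of cells, passed with a small step. At E14.5 Abca1 read 911 and 986 in wild-type ovary, 851 and 985 in knock-out ovary, 1110.1 and 1080.1 in wild-type testis and 978 and 1085 in knock-out testis. At E12.5 Abca1 read 1073 and 1010.0 in wild-type ovary, 1263 and 1182 in knock-out ovary, 871 and 879 in wild-type testis and 926 and 933 in knock-out testis. Ovary arrays were above testis arrays at E12.5, and in wild type the order was the opposite at E14.5. The difference of the steps was 0.51 (SE 0.13, limma adjusted p = 0.033), but with the mean of its 3 probe sets it turned to -0.74 (adjusted p = 0.458). The call for Abca1 therefore rests on 1 probe set.

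For some genes of the early steps the rise from E12.5 to E14.5 was not called as different between the sexes. For Idi1, Fdps and Mvk that difference was 0.25, 0.41 and -0.37, with 95% intervals of -0.25 to 0.74, -0.66 to 1.48 and -1.03 to 0.30. A further probe set of Mvk gave 0.77. Idi1 read 554 and 424 in wild-type ovary, 327 and 590.3 in knock-out ovary, 646 and 609 in wild-type testis and 764 and 739 in knock-out testis at E12.5. Cyp51 read 355 and 240.4 in wild-type ovary, 323 and 366 in knock-out ovary, 353 and 337 in wild-type testis and 381 and 431 in knock-out testis at E12.5. In the probe sets used, both genes had their lowest values in ovary arrays at E12.5, and for Idi1 the testis arrays were above every ovary array of that stage. A further probe set of Idi1 overlapped between the sexes at E12.5 and gave 0.55 for the difference of the steps. A further probe set of Cyp51 was lowest in wild-type testis replicate 1 at E12.5 (193.5). Sqle read 357 and 434 in wild-type ovary, 491 and 447 in knock-out ovary, 386 and 359 in wild-type testis and 440.4 and 569.8 in knock-out testis at E12.5. Its difference of the steps was 0.62 with limma adjusted p = 0.0515, just outside the threshold.

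The early and dim genes were mixed. Mvd read 36.6 and 47.2 in wild-type ovary, 38.6 and 59.7 in knock-out ovary, 40.9 and 37.3 in wild-type testis and 32.3 and 45.0 in knock-out testis at E12.5. Tm7sf2 read 9.92 and 9.27 in wild-type ovary, 20.9 and 17.6 in knock-out ovary, 12.7 and 11.97 in wild-type testis and 9.13 and 15.6 in knock-out testis at E12.5, all under the lowest E14.5 testis array. Pmvk, phosphomevalonate kinase, lay between 89.4 and 173 over the 16 arrays and was not called in any comparison. For Mvd the difference of the steps was 1.18 (SE 0.33, limma adjusted p = 0.0402).

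The number of genes called for this difference of steps moved with single arrays. It was 5 with the wild-type testis E12.5 arrays averaged, and 6, 5 and 7 without wild-type testis E12.5 replicate 1, replicate 2 and knock-out testis E12.5 replicate 1. It was 9 without wild-type ovary E12.5 replicate 2, 9 without knock-out ovary E12.5 replicate 1, 7 without wild-type ovary E14.5 replicate 1, 8 without either knock-out ovary E14.5 array, 8 and 9 without wild-type testis E14.5 replicates 1 and 2, 9 without either knock-out testis E14.5 array, and 16 or 17 without any 1 of the other 4 arrays.

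**Figure D5:**
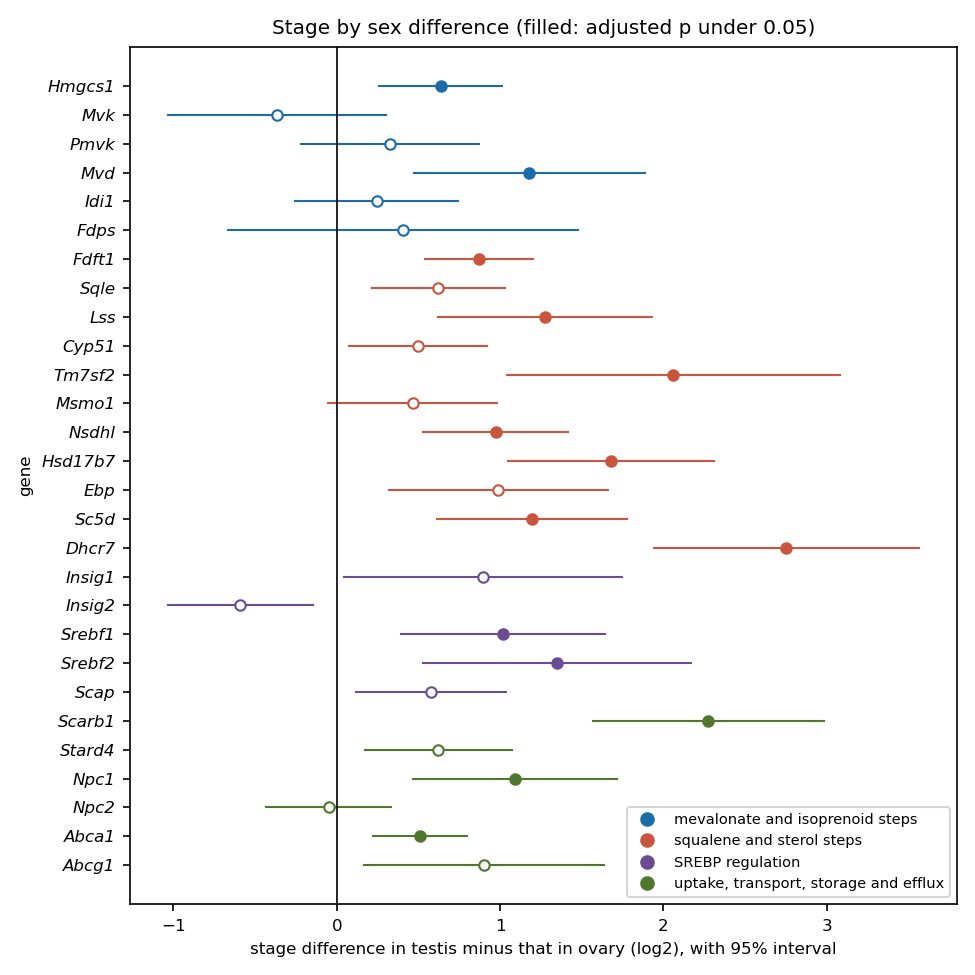
Difference between testis and ovary in the log2 step from E12.5 to E14.5, averaged over genotype (horizontal axis), with 95% intervals, for the 28 cholesterol genes (vertical axis) coloured by role. Filled points passed an adjusted p under 0.05 (14 genes), led by Dhcr7 at 2.75, and Mvk, Insig2 and Npc2 lie below 0.

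Averaged over sex and genotype, 18 of 28 members were higher at E14.5, against 13% of all genes. Averaged over stage and genotype, 13 were higher in testis, against 5.29% of all genes. With the wild-type testis E12.5 arrays averaged these counts were 14 and 10. Cyp51 had the smallest p of the sterol enzymes for stage, 0.86 (SE 0.098, limma adjusted p = 3.32e-05), and Msmo1 for sex, 0.88 (SE 0.12, limma adjusted p = 0.000346). Idi1 was first of the isoprenoid genes for both, 0.75 (SE 0.12, limma adjusted p = 0.000423) and 0.69 (SE 0.12, limma adjusted p = 0.00179), Insig1 of the regulators, 1.05 (SE 0.20, limma adjusted p = 0.00176) and 0.67 (SE 0.20, limma adjusted p = 0.0432), and Scarb1 of the transport genes, 0.75 (SE 0.16, limma adjusted p = 0.0046) and 1.05 (SE 0.16, limma adjusted p = 0.00107). Since these averages include the testis at E14.5, they do not stand apart from the comparisons above.

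Loss of Wnt4 left the set without a called change. Limma called 0 of 28 members in ovary at E12.5 (0.292% of all genes called in either direction), in ovary at E14.5 (0.543%), in testis at E12.5 (0.0405%) and in testis at E14.5 (0.00811%). At an unadjusted p under 0.05 the members numbered 3 higher, 1 higher and 1 lower, 5 higher, and none in the same order. Member medians were 0.23, 0.013, 0.24 and 0.081, beside 0.034, -0.021, 0.10 and 0.029 over all genes. Averaged over sex and stage 0 members were called (1.43% of all genes), 4 were higher at an unadjusted p under 0.05, and 24 of 28 values were above 0, beside 7431 of 12336 over all genes. The median was 0.16, beside 0.034 over all genes, and it was 0.082 without wild-type ovary E14.5 replicate 1. With so few calls over all genes in most of these comparisons, a count of 0 among 28 lies near the background.

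Dhcr7 had the largest average genotype value among the sterol enzymes, 0.52 with a 95% interval of 0.11 to 0.92 (limma adjusted p = 0.301), and in testis at E12.5 the knock-out arrays read 164 and 309 against 99.3 and 99.3, a difference of 1.15 (SE 0.38, limma adjusted p = 0.28). Fdft1 differed there by 0.48 (SE 0.15, limma adjusted p = 0.273). Of the isoprenoid genes Idi1 (0.16) and of the regulators Insig1 (0.35) had the smallest genotype p, with adjusted p = 0.726 and 0.621. Stard4, a cytosolic sterol carrier, had the lowest adjusted p of the average, 0.30 (SE 0.10, limma adjusted p = 0.268). At E14.5 Stard4 read 392 and 311 in wild-type ovary, 531 and 494 in knock-out ovary, 499 and 662 in wild-type testis and 588 and 677 in knock-out testis. In ovary of that stage its knock-out arrays lay above the wild-type arrays in the probe set used, by 0.55 (adjusted p = 0.608). In its further probe sets the genotypes overlapped there. They read 283 and 439 in wild type and 554 and 429 in knock-out, and 114 and 86.0 and then 106 and 149.

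Abcg1, an exporter of cholesterol to HDL, had the largest genotype difference of the members in ovary at E12.5, with 0.85 (SE 0.34, limma adjusted p = 0.53). At E12.5 Abcg1 read 72.1 and 61.0 in wild-type ovary, 141 and 107 in knock-out ovary, 60.7 and 86.3 in wild-type testis and 68.8 and 138 in knock-out testis. Scarb1 had 0.74 and Srebf1 0.64 there (adjusted p = 0.596 and 0.609). Of the E12.5 arrays knock-out ovary replicate 1 was the highest for all 3. It is the array with the 3'/5' ratio of 2.27, and the adrenal cortex sum was raised in both knock-out arrays, and their part was not tested.

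The genotype difference was also tested for a dependence on sex and on stage. For genotype by sex limma called 0 members against 0.073% of all genes, with 1 higher at an unadjusted p under 0.05 (Npc1, 0.63, adjusted p = 0.993). For genotype by stage it called 0 against 0.00811%, with 3 lower at an unadjusted p under 0.05 (Hsd17b7 -0.84, Srebf1 -0.73 and Fdft1 -0.37). The median SE of the members was 0.28 in both, so small dependences were not detectable with 2 arrays a group.

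Neighbouring pathways were read from lists of related genes. Of 13 measured fatty acid genes that the SREBP proteins also serve, 8 had the higher stage difference in testis (6.57% of all genes), 6 rose in wild-type testis (6.73%) and 2 in knock-out testis (2.76%). At E14.5 3 in wild type (2.26% of all genes) and 5 in knock-out (3.84%) were higher in testis than in ovary. Of the 8, Fasn, Elovl6 and Fads1 were not called rising in either testis, and Acly (-0.89), Elovl6 (-0.99) and Scd1 (-0.78) fell in knock-out ovary between the stages, as did Elovl5 (-1.06) (8.46% of all genes called lower), while Acss2 rose there (2.47). Scd1, a fatty acid desaturase, differed between the sexes in its step by 1.74, Acly, which makes acetyl-CoA from citrate, by 1.28, Fads1, a desaturase of longer fatty acids, by 0.82 and Elovl6, a fatty acid elongase, by 0.99 (limma adjusted p = 0.00229, 0.00448, 0.0145 and 0.0203). Scd1 read 104 and 89.3 in wild-type ovary, 27.9 and 34.1 in knock-out ovary, 123 and 86.8 in wild-type testis and 106 and 95.5 in knock-out testis at E14.5, so it was low in knock-out ovary and did not separate the sexes in wild type. Of 24 further measured sterol handling genes, among them oxysterol-binding proteins and receptors, 1 was called for the difference of steps between sexes (6.57% of all genes), in wild-type testis (6.73%), in knock-out testis (2.76%) and for sex in wild type at E14.5 (2.26%), a share near that of all genes. For sex in knock-out at E14.5 limma called 0 (3.84% of all genes), with 3 at an unadjusted p under 0.05. In all 4 the called gene was Lrp1, a lipoprotein receptor, with 1.30 for the step between sexes (adjusted p = 0.00216).

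Several genes that turn cholesterol into steroids were also higher in the testis at E14.5. Of 7 measured genes 6 were called in wild-type testis from E12.5 to E14.5 (6.73% of all genes), 2 in knock-out testis (2.76%), and 4 in wild type (2.26%) and 5 in knock-out (3.84%) between testis and ovary at E14.5. Tspo, a mitochondrial membrane protein, was not called in any of these and read 172 and 143 in wild-type ovary, 149 and 105 in knock-out ovary, 118 and 158 in wild-type testis and 156 and 151 in knock-out testis at E14.5. Fdx1, the electron donor of the side-chain cleavage enzyme, was higher in testis at E14.5 by 1.19 and 1.67, Hsd17b3, which makes testosterone, by 3.20 and 4.31, and Star, which carries cholesterol into mitochondria, by 3.67 and 3.58 (wild type and knock-out, limma adjusted p from 0.000294 to 0.0337). At E14.5 Star read 5.83 and 178 in wild-type ovary, 70.3 and 77.7 in knock-out ovary, 568 and 505 in wild-type testis and 1072 and 805 in knock-out testis. The summed level of 4 fetal Leydig cell genes was 6969 to 9700.4 in wild-type and 8984 to 12411 in knock-out testis at E14.5. It was 134 and 3357 in wild-type ovary and 490.0 to 695 in knock-out ovary of that stage. At E12.5 it was 146.1 to 146.5 in wild-type ovary, 584 to 1085 in knock-out ovary, 291 to 357 in wild-type testis and 571 to 1341 in knock-out testis. The part of these cells in the levels of the cholesterol genes was not tested.

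Wild-type ovary replicate 2 at E14.5, the array with that sum of 3357 and 19.5% male RNA, also read above replicate 1 in most members, for example 203 against 119.8 in Dhcr7 and 532 against 257 in Scarb1. Testis replicates 2 of that stage, with 22.7% and 16.4% female RNA, read below replicates 1 in Dhcr7, Fdft1, Nsdhl, Srebf2 and Ebp and not in all members. When this opposite-sex RNA entered the fit as a covariate, Mvd lost its call between the knock-out sexes at E14.5 and the 9 others held. Npc2, the lysosomal partner of Npc1, read 3673 and 3613 in wild-type ovary, 3376 and 3219.9 in knock-out ovary, 2959.7 and 2695 in wild-type testis and 3065 and 2564 in knock-out testis at E14.5 and was not called in any comparison.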

How the data were processed

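Gonad RNA was hybridised to 16 one-colour Affymetrix Mouse430_2 arrays. The deposited intensity values were made with MAS5, per the submitters' processing notes, and the scaling target is not given in the sources used here. They were used as deposited and not normalized again. Probe sets were named through the platform annotation where it gave 1 gene (34958 probe sets), control probe sets (64) were left out, and a probe set was kept where it exceeded the median of its array in at least 2 arrays. The brightest kept probe set stood for a gene, which left 12336 genes.

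Limma 3.58.1 in R 4.3.3 was fitted to log2(intensity + 4) with 8 group means on all 16 arrays and a variance trend, and p-values were adjusted by Benjamini-Hochberg over all 12336 genes, with calls under 0.05. The fit was tested on simulated data. Tests are two-sided and intervals are 95%. With 2 arrays a group, their number limits the precision.

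The members and lists were chosen with earlier results of these data known. Members called in any comparison were named with their array values, together with Dhcr7 and the member of smallest p in each role for each averaged comparison, and up to 4 called genes of each other list by smallest p. Comparisons within knock-out arrays and the counts of non-overlapping arrays were added after the data were seen. Alternatives changed the pseudocount, filter, normalization, variance model, array weights, replicate block, probe set rule, arrays in the fit and covariates, and left out each array in turn. Replicate numbers were not used to pair the samples in the main fit. The correlation of deviations between groups ran from -0.66 to 0.58 with a median of -0.0040, and 7 of 28 pairs of groups had one above 0.1. Whether some groups share a replicate structure was not tested.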

Additional observations from a re-analysis of the deposited data

Results flagged for a closer look

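The step from E12.5 to E14.5 differed between testis and ovary in 14 of the 28 cholesterol genes by the limma interaction test, each with the higher value of E14.5 minus E12.5 in testis. Over all genes 6.57% were called in that direction. The difference of the log2 steps was 2.75 for Dhcr7, 2.28 for Scarb1, 2.06 for Tm7sf2 and 1.68 for Hsd17b7. It was 1.35 for Srebf2, 1.27 for Lss, 1.20 for Sc5d and 1.18 for Mvd. It was 1.09 for Npc1, 1.02 for Srebf1, 0.97 for Nsdhl and 0.87 for Fdft1, and the smallest were 0.64 for Hmgcs1 and 0.51 for Abca1. The adjusted p ranged from 0.00216 for Dhcr7 to 0.0423 for Srebf1. The calls of Dhcr7, Scarb1, Fdft1, Nsdhl and Hsd17b7 were kept in all 28 alternatives, and those of Lss, Tm7sf2 and Sc5d in 20 to 25. Those of Srebf1, Hmgcs1, Mvd, Npc1, Srebf2 and Abca1 were kept in only 11 to 15.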

How the results depend on the processing

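Counts of called members moved when single arrays were left out, which leaves 1 array in a group that is then assumed to vary like the others. Such counts ran from 4 to 10 in the wild-type testis between stages, 0 to 6 in the knock-out testis, 0 to 1 in the wild-type ovary and 0 to 10 in the knock-out ovary. They ran from 0 to 12 for sex in wild type at E14.5, 3 to 7 in knock-out at E14.5, 0 to 2 in wild type at E12.5, 0 to 5 in knock-out at E12.5, and 5 to 17 for the difference of the stage steps between sexes. Member medians ran from 0.26 to 0.41 for the average sex difference, 0.082 to 0.20 for the average genotype difference, -0.021 to 0.23 for the wild-type ovary between stages, and -0.13 to 0.29 for genotype in ovary at E14.5. For sex they ran from -0.17 to 0.0056 in wild type at E12.5, 0.63 to 0.98 in wild type at E14.5, -0.21 to 0.079 in knock-out at E12.5 and 0.66 to 0.93 in knock-out at E14.5, and for the difference of steps from 0.66 to 0.96.

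With the wild-type testis arrays of E12.5 averaged, 7 members were called in wild-type testis, 5 for the difference of steps and 2 in knock-out ovary between stages. The call at E12.5 between wild-type sexes went to 0 with a pseudocount of 16, no filter, array weights, that averaging, the 3'/5' covariate and only the arrays of the comparison. With only the arrays of the comparison, 0 were called for sex in wild type at E14.5 and 0 in knock-out ovary between stages. The knock-out ovary count was 2 with the mean of probe sets, 8 with the opposite-sex covariate and 0 with the 3'/5' covariate. Array weights gave 1 call for genotype in testis at E12.5 and 16 for sex in knock-out at E14.5. For sex in knock-out at E12.5 the opposite-sex covariate gave 3 calls and the mean of probe sets a median of 0.024. The mean of probe sets turned the Abca1 difference of steps to -0.74. For changes other than those made by fewer arrays the cause was not tested.

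The replicate number was not used to pair arrays in the main fit. With it as a block the counts were 3 in knock-out ovary, 15 in wild-type testis and 10 in knock-out testis between stages, 9 for sex in wild type at E14.5, 11 for the average sex difference and 12 for the difference of steps. Of the values of counts and medians under all alternatives, 675 kept their direction and side of the threshold or moved little, 15 moved, 8 became stronger and 46 weaker. The signal over background that a dim probe set allows limits Tm7sf2, Mvd and Mvk.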

Other observations

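Scd1, the fatty acid desaturase, was the member of the fatty acid list that changed with genotype. In ovary at E14.5 it fell from 104 and 89.3 in wild type to 27.9 and 34.1 in knock-out, a log2 difference of -1.53 (limma adjusted p = 0.0111). Of the 28 cholesterol genes 0 were called there, a share near that of all genes (0.543%).

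Of the 28 members 16 had more than 1 probe set past the filter, with 25 further probe sets in all. The sign of the further probe set was that of the one used in 23 of 25 for sex in wild type at E14.5, 21 in knock-out at E14.5, 22 and 23 for the stage step in wild-type and knock-out testis, and 17 for the difference of the steps between sexes. Scarb1 was raised in all 3 of its probe sets in that difference (2.59, 2.28 and 2.08), and Abca1 had -1.55 and -1.17 in its other probe sets against 0.51.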
